A study of Mus musculus with 4 samples.

Results

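The genes described here are 8 members of the Tead and Yap pathway: the DNA-binding factors Tead1, Tead2, Tead3 and Tead4, the coactivators Yap1 and Wwtr1 (whose protein is also called TAZ), the muscle cofactor Vgll2, and Ankrd1, a gene long used as a readout of Yap activity. They were taken by name from 32285 genes counted in single mouse muscle stem cells, and all 8 had counts. The cells came from skeletal muscle of MyoD-KI mice, in which tdTomato, a red fluorescent protein, reports MyoD. They were grown for 5 days in a serum-rich medium and sorted for high tdTomato signal. All samples belong to this 1 group, labelled with replicate numbers 1 to 4. The low-signal cells named in the labels were not analysed here, and the number of animals behind the cultures is not given in the sources used here.

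Tead proteins recognise a short DNA element known in muscle as M-CAT, and have little activity without a partner. Yap1 and Wwtr1 are such partners: the Hippo kinases phosphorylate them and keep them out of the nucleus, and when the kinases are quiet they enter it and raise genes of growth and adhesion. Vgll proteins bind Teads at a surface that overlaps the Yap1 site, and in muscle the Teads are known both for Yap-driven myoblast growth and for the regulation of contractile genes. Transcript counts say nothing about where Yap1 or Wwtr1 proteins lie in the cell or whether they are phosphorylated.

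The 4 files held 62627341 to 68898900 unique molecular identifiers (UMIs, each standing for 1 captured transcript). They hold the same cells. Pairs of files shared 5946 to 5965 barcodes, at least 99.883% of the smaller file, and at least 99.6% of sampled cells correlated best with their own barcode in the other file. They were therefore counted as 1 sample (n = 1), and no test or p-value is given. The intervals are 95% counting intervals for the mean count of 1 file, and leave out differences between animals, cultures and sorts. Of 5985 barcodes, 5944 were in all 4 files, and 5481 of these had a mean of at least 1000 genes and under 10% mitochondrial UMIs. Levels are UMIs of a gene per 1000000 UMIs of the group (CPM), averaged over the files. The 3-prime chemistry counts a transcript once whatever its length, but reads from introns, where counted, would raise long genes such as Tead1 (227 kb) over short ones such as Vgll2 (5.97 kb).

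As a pool the sorted cells carried myogenic transcripts: the 5 myogenic markers summed to 3586 CPM, and to 1465 CPM in cells of low Myog. All 5 were at or above 1 CPM, as were 2 of 6 fibroblast and 3 of 5 pericyte or smooth muscle markers. Markers of endothelial, immune, Schwann and adipocyte cells summed to 1.94, 0.835, 2.07 and 0.151 CPM. The fibroblast list summed to 114 CPM, of which Col3a1 made up 110, while Pdgfra and Dcn were at 0.499 and 0.327 CPM. That sum was 164 CPM (163 to 167 over the files) in cells of low Myog and 60.3 (59.1 to 61.6) in cells of high Myog, and the pericyte or smooth muscle list went from 34.7 to 10.6 CPM. Both lists were highest in cells of low Myog with Mki67 and Top2a under 50 CPM, at 219 and 46.5 CPM. Their part in the results between groups of cells was not tested. No cell type that lacks the pathway genes was present, so the level that free RNA adds could not be measured.

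Cells were grouped from dividing myoblast to myocyte by the levels of genes other than the 8. Myogenin (Myog), the factor of terminal differentiation, gave 2572 cells under 400 CPM (low), 579 between 400 and 1500 (intermediate) and 2330 at or above 1500 (high). The proliferation genes Mki67 and Top2a divided the low cells into 1066 at or above 400 CPM (dividing), 707 between 50 and 400, and 799 under 50 (non-dividing). The sarcomere genes Acta1 and Myh3 divided the high cells into 279 under 300 CPM (early), 748 between 300 and 3000, and 1303 at or above 3000 (late). These names give marker levels and not an order in time: Acta1 was at 1166 CPM in intermediate and at 105 CPM in early cells. A gene was called higher or lower where the mean log2 ratio of CPM plus 1 reached 1.5-fold with the same sign in all 4 files and the groups held at least 50 UMIs a file. The files share cells, so a shared sign over them, or file values that do not overlap between groups, is no sign of replication. The share of all genes whose files did not overlap was not counted.

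Over all kept cells Ankrd1 gave the highest count of the 8, at 578 CPM (572 to 584). Tead1 followed at 206 CPM, then Wwtr1 at 83.3 and Tead4 at 71.5. Yap1 stood at 24.0 CPM (22.9 to 25.2) and Tead2 at 23.3 (22.2 to 24.5), and the intervals of these neighbours overlapped. Vgll2 was at 13.9 and Tead3, the lowest, at 5.68 CPM. The order is one of transcript counts, with the limit on long genes given above. In GENCODE M21 on GRCm38, Tead1 lies at chr7:112679318-112906807 on the plus strand and Tead4 at chr6:128224288-128300823 on the minus strand. Yap1 lies at chr9:7931999-8004596, Wwtr1 at chr3:57455649-57575910 and Ankrd1 at chr19:36111961-36120099, all on the minus strand.

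The M-CAT element, CATTCC or GGAATG on the other strand, is shown where it occurred in the 250 bases before a RefSeq start (GRCm38.p6), because it is the letter sequence by which Tead factors would recognise members of their own pathway. A promoter window was in the table for 6 of the 8 members, and 12.6% of all 32851 windows held the element. Each piece below has 30 bases, read 5′ to 3′ on the strand of the gene, with the element in capitals. Ankrd1 had 2 elements, beginning 210 and 123 bases before the start.
Ankrd1, chr19:36120037-36120066, minus strand: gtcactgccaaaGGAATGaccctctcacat
Ankrd1, chr19:36119950-36119979, minus strand: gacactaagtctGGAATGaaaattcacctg
Yap1, chr9:8004720-8004749, minus strand: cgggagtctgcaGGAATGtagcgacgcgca
Wwtr1, chr3:57576029-57576058, minus strand: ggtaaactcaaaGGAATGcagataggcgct
Tead3, chr17:28350970-28350999, minus strand: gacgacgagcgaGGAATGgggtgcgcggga
Tead3, chr17:28350701-28350730, minus strand: ccgggctCATTCCgtaCATTCCggccatcc

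Both Ankrd1 pieces and the last Tead3 piece lie inside a first exon of a longer transcript in GENCODE M21. The Vgll2 and Tead2 windows held no such letters, which says nothing of Tead binding elsewhere. A match is a description of the sequence and not a bound site, and no binding data are used here.

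Tead4 changed most of the 8 between low and high Myog. This gene is known to be raised by the MyoD family as myoblasts differentiate. In the low cells Tead4 was at 15.3, 16.5, 15.3 and 15.3 CPM in replicates 1 to 4. In the high cells it was at 139, 135, 136 and 134 CPM. Every file was low in the first group and high in the second, with no overlap. The ratio of levels was 8.73-fold, and the log2 ratio of CPM plus 1 was 3.05 (2.92 to 3.18).

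Tead4 was already called higher in cells of intermediate Myog, at 53.8 CPM (log2 ratio 1.72 over the low cells). It was the 1 member higher in that step, against 6.08% of all genes, and Wwtr1 the 1 member lower (-0.68), against 8.41%. Within the low cells it did not follow division: it was at 15.8 CPM in dividing and 16.6 CPM in non-dividing cells. Within the high cells it went from 68.8 CPM (59.5 to 79.2) early to 107 and then to 163 CPM (157 to 169) late. The log2 ratio of late over early cells was 1.24 (1.02 to 1.44), with files from 1.07 to 1.47. When cells were ranked by Myog into 20 groups, Tead4 stayed between 10.4 and 13.9 CPM in the 7 lowest groups, reached 184 CPM in the nineteenth group and was at 160 CPM in the last. At an equal depth of 5000 UMIs a cell, 6.70% of low, 19.5% of intermediate and 45.2% of high cells had a Tead4 UMI. Without thinning these shares were 14.4%, 38.4% and 68.5%.

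**Figure D1:**
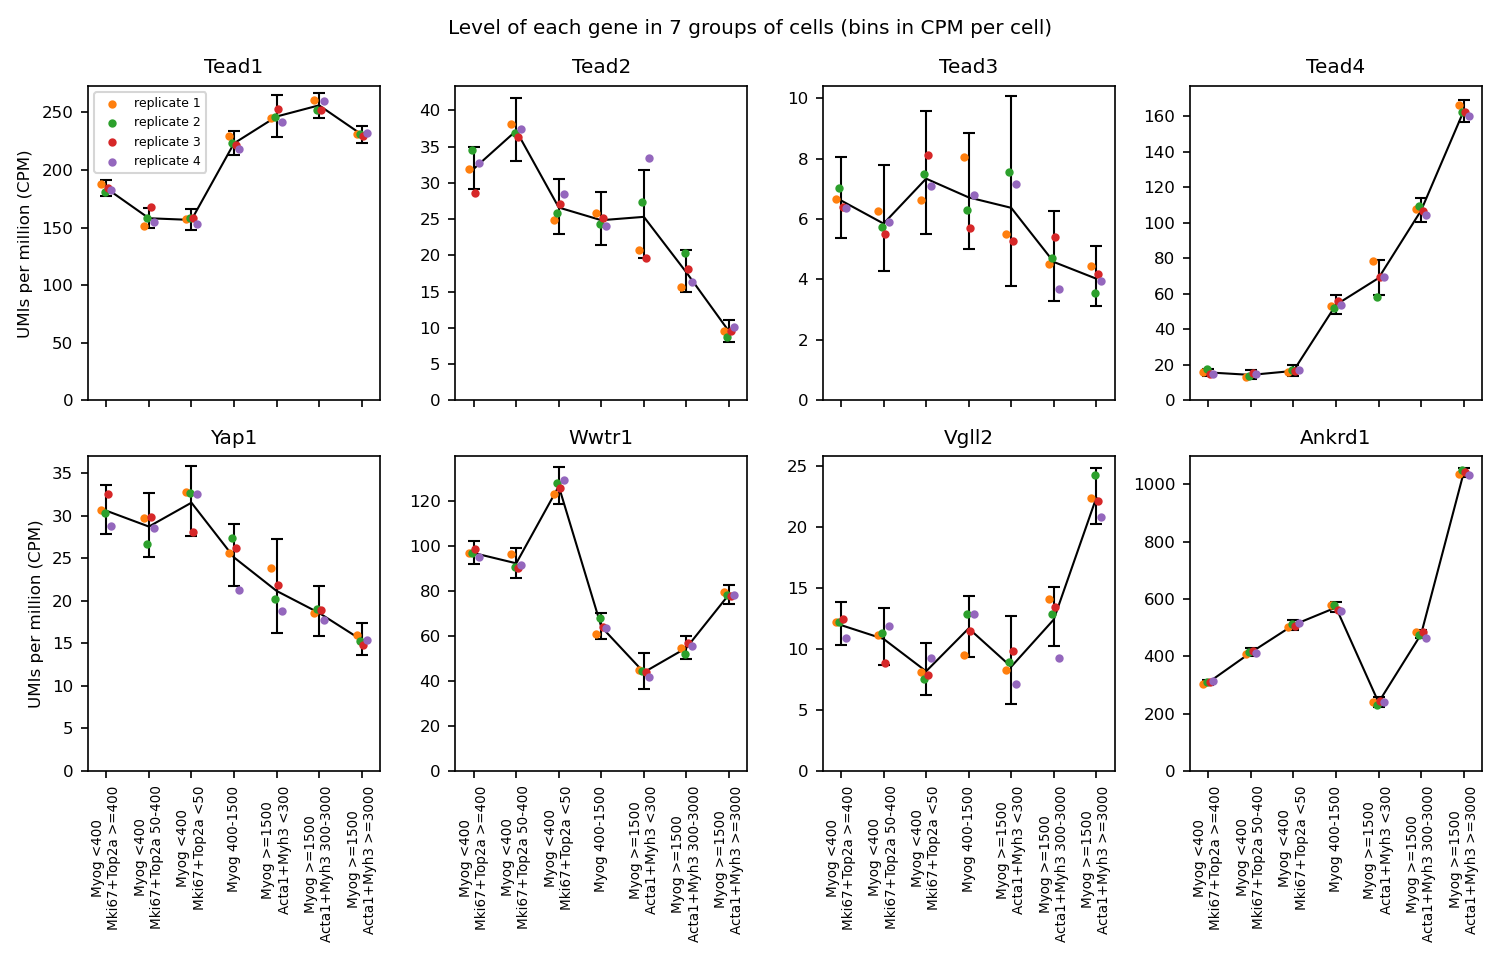
Level of each of the 8 genes (CPM, linear axes from 0) in 7 groups of cells ordered from dividing low-Myog cells to late myocytes. Coloured points are the 4 files, which hold the same cells, and black bars are 95% counting intervals of the mean: Tead4 climbs from 15.8 to 163 CPM, Wwtr1 is lowest at 43.8 CPM in early high-Myog cells, and Ankrd1 is at 239 CPM there and at 1040 CPM in late cells.

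Tead1, the most abundant Tead transcript, differed less. It was at 168 to 174 CPM over the files in low cells and at 238 to 242 CPM in high cells, so that the ranges did not overlap. The log2 ratio was 0.49 (0.44 to 0.54), below the 1.5-fold limit on CPM. The whole transcriptome leans the other way in this comparison: the median log2 ratio of all 12916 genes was -0.28, and relative to it Tead1 stood at 0.77. Tead1 passed the limit with TMM scaling (0.79) and with the median set to 0 (0.77), so whether it counts as called depends on the scaling. Within the low cells it was at 184 CPM in dividing and 157 CPM in non-dividing cells, and in the high cells it was at 246 CPM early and 231 CPM late, a log2 ratio of -0.09 (-0.21 to 0.02).

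Tead2, which is abundant in the early embryo, was lower in cells of high Myog than in cells of low Myog. It was at 30.3 to 33.0 CPM over the files in low cells and at 12.6 to 14.4 CPM in high cells, with no overlap. The log2 ratio was -1.18 (-1.34 to -1.01), and Tead2 kept its call under both other scalings. In late cells it was at 9.53 CPM (8.10 to 11.1), against 25.3 CPM (19.7 to 31.7) in early cells. The 4 files spread widely for early cells, from 19.7 to 33.5 CPM, where each held about 71 Tead2 UMIs. Early cells were near the non-dividing low cells (26.6 CPM), with a log2 ratio of -0.10 (-0.47 to 0.31) and no call. Within the high cells Tead2 was at 24.3 CPM where Mki67 and Top2a reached 400 CPM and at 9.92 CPM where they were under 50. Within the low cells these levels were 31.9 and 26.6 CPM. The parts of Myog, division and sarcomere state were not tested.

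Tead3 was close to the limit of what these counts resolve. Its levels ran from 4.03 CPM in late cells to 7.33 CPM in non-dividing low cells, and neighbouring groups had overlapping intervals. Between high and low Myog its log2 ratio was -0.48 (-0.76 to -0.20), which is below the limit. With doubled cut points (-0.61) and within non-dividing cells (-0.70) it was called lower. The late over early ratio of -0.54 had an interval from -1.21 to 0.14 that includes 0, and leaving out replicate 1 or 3 turned it into a call (-0.64 and -0.63).

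The make-up of the Tead pool shifted with these changes. Tead4 made up 6.94% (6.35 to 7.58) of the UMIs of the 4 Tead genes in low cells, 17.5% in intermediate and 34.5% (33.7 to 35.4) in high cells. In late cells its share was 40.0%. Tead1 remained the largest part throughout, with 75.9% in low and 60.9% in high cells, while Tead2 went from 14.2% to 3.45%. The summed Tead level was 225 CPM in low, 308 CPM in intermediate and 394 CPM in high cells, so the share of Tead1 was smaller where its own level was higher.

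**Figure D2:**
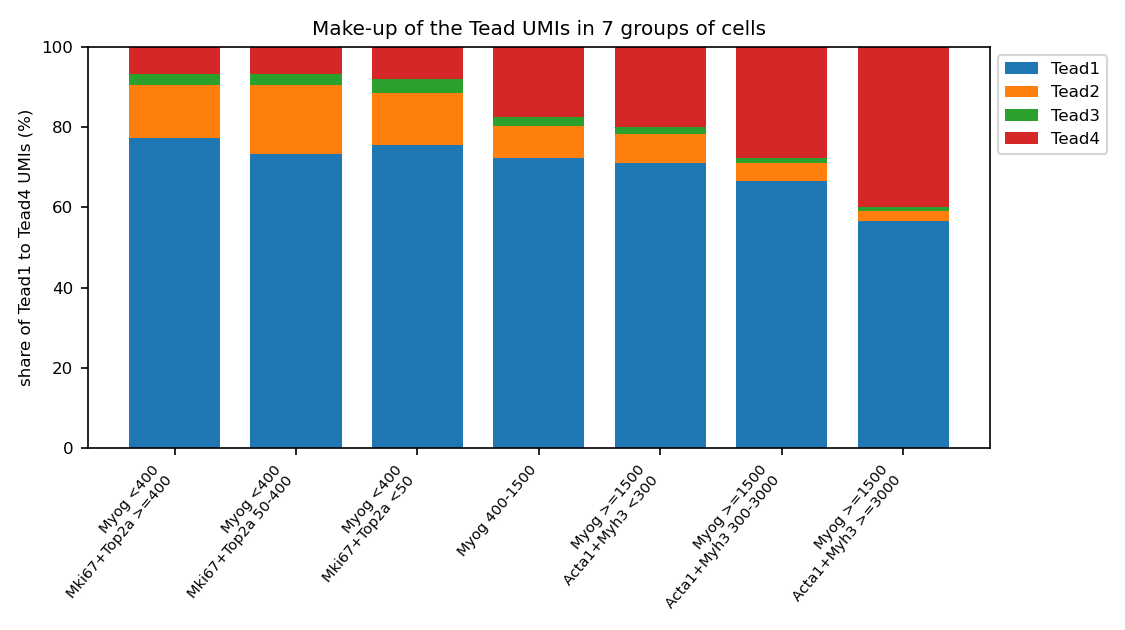
Share of Tead1, Tead2, Tead3 and Tead4 in the UMIs of the 4 Tead genes (percent, stacked to 100) in the same 7 groups of cells. The Tead4 part widens from 6.61% in dividing low-Myog cells to 40.0% in late myocytes, and the Tead2 part narrows from 13.4% to 2.34%.

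Yap1 was lower where Myog was high. It was at 29.7 to 30.9 CPM over the files in low cells and at 16.5 to 17.6 CPM in high cells, with no overlap between the 2 groups. The log2 ratio was -0.80 (-0.96 to -0.65), which was -0.53 relative to the median of all genes. The call was lost with TMM scaling (-0.51) and with the median set to 0 (-0.54), while the direction held. Division made little difference in the low cells, with 30.6 CPM in dividing and 31.5 CPM in non-dividing cells and a log2 ratio of -0.04 (-0.27 to 0.19). In high cells Yap1 was at 21.2 CPM early and 15.4 CPM late, a log2 ratio of -0.43 that did not reach the limit.

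Wwtr1 did not follow Yap1. Among low cells it was at 123, 128, 126 and 129 CPM in replicates 1 to 4 where division genes were low, and at 95.1 to 98.5 CPM where they were high. In early high-Myog cells it was at 44.8, 44.6, 43.9 and 41.7 CPM. In late cells it was at 79.4, 78.3, 77.6 and 78.1 CPM. The early cells were the lowest in every file, below both the low cells and the late cells, with no overlap between the files of these groups.

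From non-dividing low to early high cells, Wwtr1 was 2.89-fold lower by its levels, a log2 ratio of -1.51 (-1.78 to -1.24). In that step Wwtr1 and Ankrd1 were called lower, against 18.5% of all genes, and Tead4 (1.98) and Tead1 (0.65) higher, against 10.5%. From early to late cells it was called higher, with a log2 ratio of 0.83 (0.56 to 1.10), a call that was lost with halved cut points (0.48). Over the whole Myog contrast these opposite steps left Wwtr1 at 67.6 CPM in high and 103 CPM in low cells (log2 ratio -0.60), and that call was lost under both other scalings (-0.30 with TMM and -0.32 with the median set to 0). Taken over all kept cells in place of high-Myog cells alone, the sarcomere contrast gave -0.29 for Wwtr1, the opposite sign.

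Vgll2, a Tead cofactor with known roles in fibre type, stood at 8.28, 8.91, 9.84 and 7.15 CPM in early high cells. In late cells it stood at 22.4, 24.3, 22.1 and 20.9 CPM. The files did not overlap between these groups, and the log2 ratio was 1.30 (0.75 to 1.87), from about 24 Vgll2 UMIs a file in early cells. Its levels lay between 8.17 and 12.0 CPM in all low and intermediate groups. Over the Myog contrast Vgll2 was called higher at a log2 ratio of 0.69 (0.50 to 0.88), and with a pseudocount of 10 CPM this call was lost (0.43).

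Ankrd1 encodes a stretch-responsive protein of the sarcomeric I-band as well as serving as a Yap target. Among low cells it was at 302 to 314 CPM over the files in dividing cells and at 502 to 517 CPM in non-dividing cells, and the ranges did not overlap. The log2 ratio of dividing over non-dividing cells was -0.72 (-0.78 to -0.66). In early high cells Ankrd1 was at 242, 230, 243 and 241 CPM. In late cells it was at 1035, 1049, 1043 and 1032 CPM. Cells of intermediate Myog were at 559 to 580 CPM over the files, a log2 ratio of 0.57 over all low cells and not a call. Every late file lay above every file of these other groups, and every early file lay below them. Finer groups did not keep the late cells highest. The 77 intermediate cells with Mki67 and Top2a under 50 and Acta1 and Myh3 between 300 and 3000 CPM were at 1147 CPM. Late cells with Mki67 and Top2a under 50 CPM were at 1112 CPM. The other intermediate groups of at least 50 cells were at 277 to 587 CPM. The place of the early cells depended on their mix of dividing cells: the 135 early cells with Mki67 and Top2a under 50 CPM were at 333 CPM, above the dividing low cells, and the 68 with at least 400 CPM were at 138 CPM.

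The late over early ratio of Ankrd1 was 4.35-fold by levels, a log2 ratio of 2.12 (2.01 to 2.23). The early cells had more Mki67 (165 against 22.9 CPM) and less Myog (2728 against 4256 CPM). Restricted to cells with Mki67 and Top2a under 50 CPM (1153 late and 135 early cells), the log2 ratio was 1.74. Restricted to Myog between 2500 and 5000 CPM (653 and 118 cells) it was 2.24. The late over early calls of Tead4, Wwtr1, Vgll2 and Tead2 were also kept in both subsets. From non-dividing low to all early high cells Ankrd1 was lower, at a log2 ratio of -1.09 (-1.21 to -0.97). With only non-dividing cells on both sides the ratio was -0.61, and with Acta1 and Myh3 also under 300 CPM on both sides it was -0.54 (-0.69 to -0.39) and no longer a call. Wwtr1 under the same matching was at -1.48 and -1.51, and the calls of Tead4 and Tead1 also held.

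Counted together, 3 of the 8 members were called higher with Myog (Tead4, Ankrd1 and Vgll2), against 12.1% of all genes. Another 3 were called lower (Tead2, Yap1 and Wwtr1), against 32.3% of all genes. Of all 12916 genes, 1566 were higher and 4166 lower, a split that became 2342 to 2850 with TMM and 2260 to 2970 with the median set to 0. Under either, 1 member (Tead2) was lower, and Tead1 joined the higher ones. In the division contrast no member was called higher (13.0% of all genes were) and 1 was called lower, Ankrd1 (11.0%). That split of all genes was 1477 higher and 1257 lower, and 1746 and 973 with TMM.

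In the sarcomere contrast 4 members were called higher (Ankrd1, Vgll2, Tead4 and Wwtr1), against 10.6% of all genes, and 1 lower (Tead2), against 25.7%. Of 10451 genes, 1103 were higher and 2689 lower there with a median log2 ratio of -0.26, while TMM gave 1880 and 1316 and the set median 1564 and 1633. The 4 higher calls stood under every scaling.

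**Figure D3:**
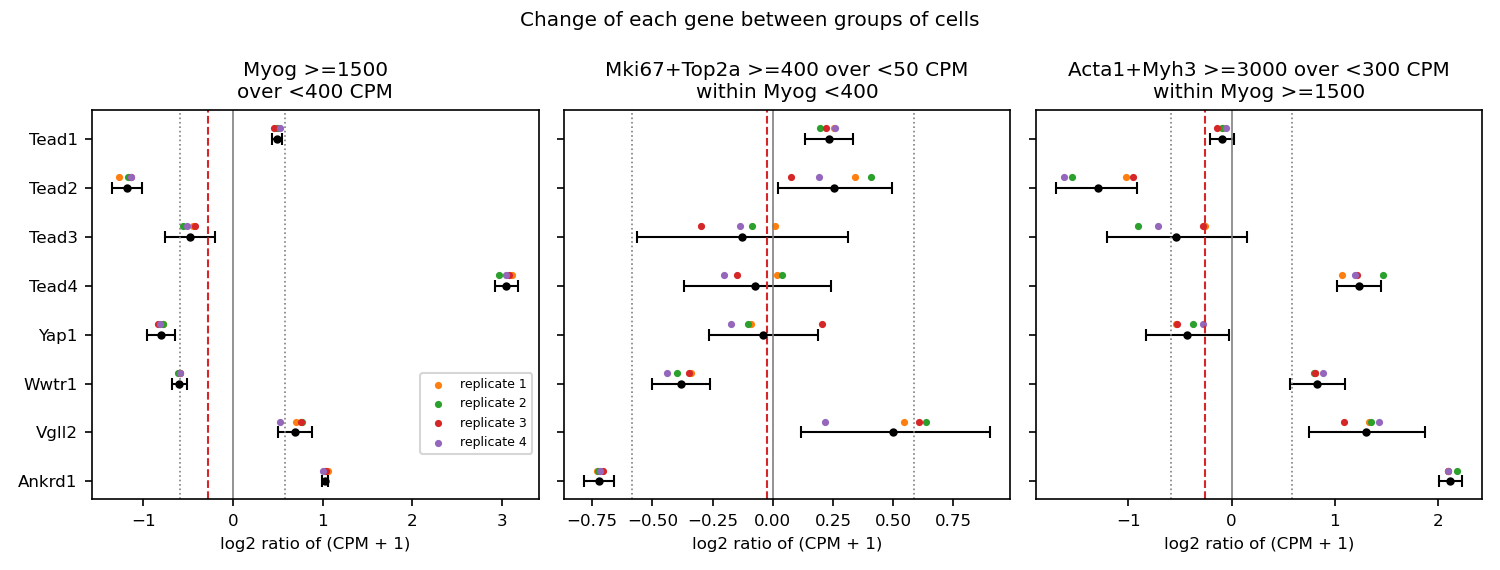
Log2 ratios of CPM plus 1 for the 8 genes in 3 comparisons: high over low Myog, dividing over non-dividing cells of low Myog, and late over early cells of high Myog. Black points with bars are means with 95% counting intervals, coloured points the 4 files, dotted lines the 1.5-fold limit and the red dashed line the median of all genes: Tead4 reaches 3.05 with Myog and Ankrd1 2.12 in late cells, and the axes differ between panels.

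The other genes of the pathway were taken as lists by role. The lists overlap: Amotl2 and Ptpn14, for example, count both as upstream regulators and as Yap targets. Of 13 genes of the Hippo kinase cassette, which restrains Yap1 and Wwtr1, none was higher with Myog and 5 were lower, beside 12.1% and 32.3% of all genes, so the lower share was near that of all genes. The strongest were Map4k4 (317 to 153 CPM, log2 ratio -1.05) and the scaffold Sav1 (-0.92), while Lats1, a kinase that phosphorylates Yap1, was at -0.67. The list had a median of -0.48 beside -0.28 for all genes, and with either other scaling 2 were higher and 2 lower. Of all 12916 genes, 2342 were higher and 2850 lower with TMM, and 2260 and 2970 with the median set to 0. Under both other scalings 4 of 15 upstream regulators tested were higher and 4 lower, beside the rescaled counts of all genes just given. On CPM 2 were higher and 5 lower, shares near the 12.1% and 32.3% of all genes. Among the lower ones were Ptpn14 (-1.74), Frmd6 (-1.70) and Amot (-1.51), genes of proteins that bind Yap1 or act upstream of it. Frmd6 was then called higher from early to late cells (1.12).

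Among Tead cofactors outside the members, 3 of 6 were higher with Myog and 1 was lower, beside 12.1% and 32.3% of all genes. Within non-dividing cells 2 were higher and 3 lower, beside 1467 and 3849 of all 11426 genes tested there. The median log2 ratio of the list was -0.05 in place of 0.21, beside -0.29 for all genes in those cells. Ncoa1, a coactivator that can bind Teads, was at 448 against 174 CPM, a log2 ratio of 1.36. Runx1 was at 0.95 and Vgll3, a relative of Vgll2, at 0.61. Ncoa3 was at -0.83 and was not lower under the other scalings. Vgll1 had no UMI in any file, which at this depth allows up to 0.0455 CPM.

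Yap target genes mostly went down with Myog while Ankrd1 went up. Of 20 tested, 2 were higher and 11 lower, beside 12.1% and 32.3% of all genes, with a median of -0.83 beside -0.28 for all genes. Under both other scalings 2 were higher and 10 lower. Of all 12916 genes, 2342 were higher and 2850 lower with TMM, and 2260 and 2970 with the median set to 0. Ccn2, a secreted matricellular protein, went from 51.5 CPM in low cells to 7.36 in high cells, a log2 ratio of -2.65 (-2.84 to -2.46). Crim1 was at -2.53 and Asap1 at -2.44. The higher ones were Gadd45a, a stress and growth arrest gene (33.2 to 241 CPM, 2.83), and Amotl2 (0.96). From early to late cells, where Ankrd1 was called higher, 5 of 15 targets were lower and none was higher on CPM, beside 25.7% and 10.6% of all genes. With the median set to 0 these counts were 4 lower and 1 higher, beside 1633 and 1564 of all 10451 genes. With TMM they were 3 and 2, beside 1316 and 1880. Within non-dividing cells 9 of 14 were lower and none higher, beside 2380 and 1059 of all 9717 genes tested there. Among dividing cells 1 of 19 was higher and 5 were lower, beside 13.0% and 11.0% of all genes, led by Nt5e (-1.34), Gadd45a (-1.30) and Tgfb2 (-1.05).

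A list of muscle genes held to carry M-CAT elements was written from general knowledge and not checked against a source. Counted without Myog and Acta1, which define the groups, 7 of its 9 genes were higher with Myog and 2 lower. On CPM 12.1% of all genes were higher and 32.3% lower. The list counts were the same under both other scalings, beside the rescaled counts of all genes given above. Actc1, a cardiac actin of developing muscle, went from 41.3 to 2816 CPM (6.06). Ckm, creatine kinase, was at 4.86 and Tnnt2, a troponin, at 4.55. The lower ones were Myf5 (-2.71) and Pax3 (-1.65), regulators of undifferentiated cells. The list consists largely of muscle genes, and no share of the change was assigned to Tead factors.

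Ankrd1 counts were spread widely over cells. At 5000 UMIs a cell (5197 cells, with 284 shallower ones left out) its Fano factor, the variance over the mean of the counts, was 5.85, where counting alone gives a value near 1. The factor was 1.49 for Tead4 and between 1.02 and 1.28 for the others. The factor rises with the mean count, which was 2.74 UMIs for Ankrd1 and 0.0285 to 1.01 for the others. Its excess over 1 divided by the mean was 1.77 for Ankrd1, 2.29 for Vgll2, 1.39 for Tead4 and 0.275 to 0.799 for the rest, so Ankrd1 did not stand apart on that measure. Up to 44 Ankrd1 UMIs were found in 1 cell, and the top 10% of cells held 45.0% of them. These values pool cells of all groups, so the differences between groups are part of them. Within low cells the Ankrd1 factor was 4.69, and its excess over the mean was 2.04, beside 2.72 for Tead4 and 1.81 for Vgll2. Within high cells this excess was 1.38 for Ankrd1, 2.16 for Vgll2 and 0.351 for Tead4. A UMI of Ankrd1 was found in 50.9% of dividing low cells, 44.7% of early and 84.8% of late high cells. Without thinning the shares were 69.7%, 57.2% and 91.9%, and the median depth was 13105, 9321 and 11930 UMIs.

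This spread was used to ask which pathway genes varied with Ankrd1 among cells of low Myog, a question chosen after the spread had been seen. The 1286 cells above the median Ankrd1 level (164 CPM) were set against the 1286 at or below it. Ccn2 was at 71.0 CPM in the cells above and 28.0 in those below (log2 ratio 1.31), Crim1 at 32.3 and 14.0 (1.15) and Ccn1 at 81.7 and 39.3 (1.04). Of 19 other targets, 5 were higher, against 0.955% of all genes, and 2 lower, against 2.43%. The lower ones were Tgfb2 (-0.68) and Nt5e (-0.70).

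Yap1 and Wwtr1 were not higher in the cells with more Ankrd1: Yap1 was at 29.0 against 31.9 CPM, and Wwtr1 at 94.0 against 113 CPM. Tead4 was called higher, at 19.2 against 11.3 CPM (0.73). The cells above the median had more UMIs (a median of 11979 against 9875) and less Mki67 (-0.66). Within the dividing cells alone, Ccn2, Crim1 and Ccn1 had log2 ratios of 1.38, 1.06 and 0.90, and 5 of 17 targets were higher and 2 lower, against 1.47% and 3.48% of all genes. Within the non-dividing cells 4 of 16 were higher and 2 lower, beside 1.59% of all genes higher and 276 of 9191 lower, with Ccn2 at 1.89. In those non-dividing cells Pax7 and Myh3 were also called lower where Ankrd1 was above the median. Pax7 was at 85.5 against 148 CPM (-0.79), and Myh3 at 31.1 against 63.4 CPM. Neither was called within the dividing cells (-0.43 for Pax7 and 0.41 for Myh3) or over all low cells (-0.52 and -0.17). The parts of depth, Pax7 and Myh3 were not tested. A first form of the split, on counts thinned at random to 5000 UMIs, was replaced after its values had been seen because ties and the random draw moved it. It gave 4 higher and 1 lower target, with Ccn2 at 1.24, and Nt5e was then no longer called. The share of all genes called in that form was not counted, so its number of targets has no background. Among high-Myog cells none of 17 targets was called in either direction, where 3.68% of all genes were higher and 8.11% lower in the cells with more Ankrd1. Those cells also had more Acta1 (6018 against 2886 CPM) and Myh3 (log2 ratio 1.06) and less Mki67 (-2.10). The part of these differences was not tested. Among late cells Ccn1 (0.70) was the 1 higher target of 14 and none was lower, against 1.07% and 3.92%.

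**Figure D4:**
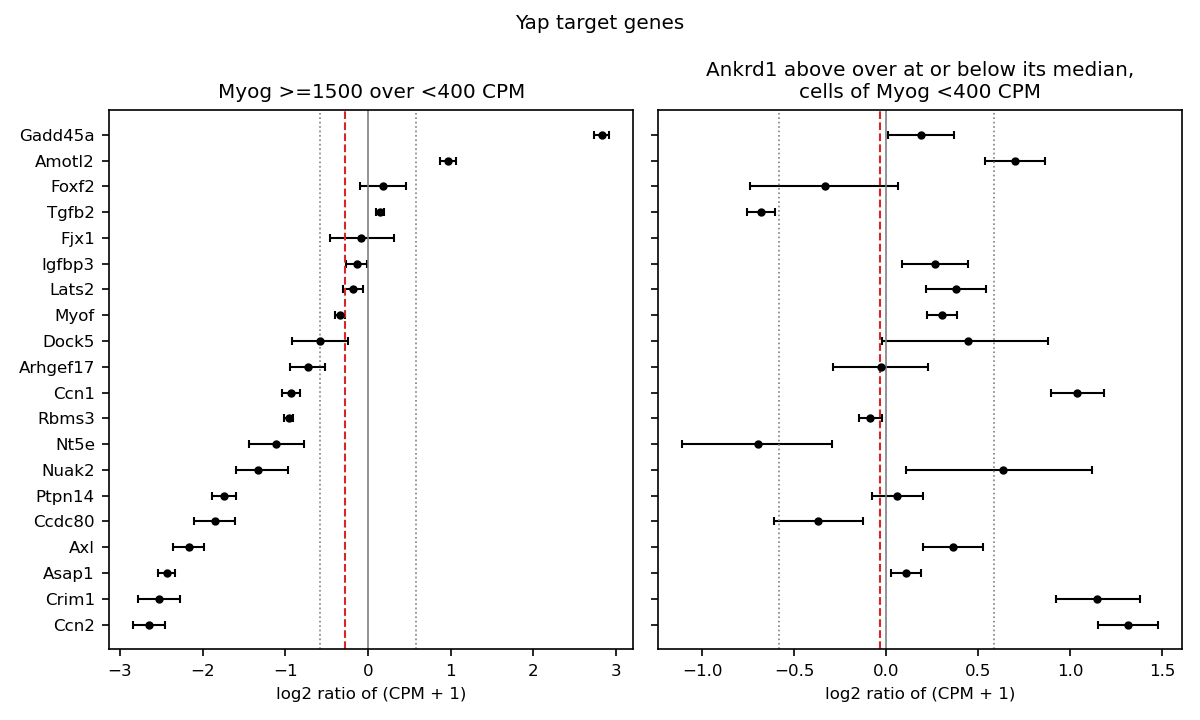
Log2 ratios of CPM plus 1 of Yap target genes between cells of high and low Myog (left) and, within low-Myog cells, between cells above and at or below the median Ankrd1 level (right). Points are means with 95% counting intervals, the dotted lines mark 1.5-fold and the red dashed line the median of all genes: Ccn2 and Crim1 lie lowest on the left (-2.65 and -2.53) and highest on the right (1.31 and 1.15).

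The genes most like each member were read from 16 groups that cross the 3 axes and hold at least 50 cells each, over 8080 genes of at least 10 CPM. Groups share the library and the cells' Myog, division and sarcomere state, so the Pearson r is a description. Tead4 was most like Tm6sf1 (0.99), Sntb1 (0.99), a syntrophin of the muscle membrane, and Pgm5 (0.99), a protein of muscle adhesion sites. Ankrd1 was most like Asb5 (0.96), Pdlim5 (0.95), a Z-disc protein, and Gm536 (0.93). Vgll2 was most like Gars (0.95) and Asns (0.93), which make glycyl-tRNA and asparagine, and Slf1 (0.93). Among the members themselves, Tead4 ran with Tead1 (0.83) and opposite to Yap1 (-0.80) and Tead2 (-0.72). Yap1 and Wwtr1 had an r of 0.52, and Ankrd1 had 0.02 with Yap1 and 0.40 with Wwtr1.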

How the data were processed

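Per the file headers, the deposited files hold unnormalised UMI counts, made by Cell Ranger 7.1.0. The submitters' processing notes name Cell Ranger 3.1.0 and the builds mm10 and GRCm39 with no role, and the treatment of intronic reads is not given in the sources used here. Of 32285 identifiers, 32158 (99.6%) were found in GENCODE M21 on GRCm38, whose coordinates are printed, and the authors' build may differ. Promoter sequences are from RefSeq. The members and gene lists were chosen with earlier results of these data known. Counts were summed per file and group of cells, and log2 ratios of CPM plus 1 were averaged over the 4 files (Python 3.11.15, numpy 2.4.6). TMM factors came from edgeR 4.0.16 and served only as an alternative scaling. Intervals are exact Poisson, Clopper-Pearson and conditional binomial. No doublets were removed, and leaving out the 5% of cells with most UMIs was an alternative. Named pathway genes are the called ones with the 3 highest and 3 lowest ratios per list and contrast, and those of the Ankrd1 comparison were chosen after their values were seen. The ratio was tested on simulated data. The alternatives are listed in the closing section.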

Additional observations from a re-analysis of the deposited data

Results flagged for a closer look

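Of 88 sets of 4 file values examined, 5 had 1 file far from the other 3, a number near the 5% that chance gives. Yap1 in non-dividing low-Myog cells was at 28.1 CPM in replicate 3, against 32.6 to 32.7 in the others. Vgll2 in dividing low-Myog cells was at 10.9 CPM in replicate 4, against 12.2 to 12.5. Ankrd1 in early high-Myog cells was at 230.0 CPM in replicate 2, against 241 to 243, and its late over early log2 ratio was 2.18 there against 2.09 to 2.10. The late over early log2 ratio of Wwtr1 was 0.89 in replicate 4, against 0.80 to 0.81. Each of the 5 values lies inside the 95% counting interval of the mean of the files.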

How the results depend on the processing

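No paired analysis was possible because all samples belong to 1 group and the replicate numbers share no second group. Of 212 alternative counts of genes, 181 stayed within 1.5 times the reported count and 31 did not. Of 575 alternative single values, 476 stayed inside the counting interval of the reported value and 98 moved outside it. The remaining 1 was a called value that changed sign (Wwtr1 late over early, -0.29 over all kept cells). Sign changes of members that were not called were not counted apart. Tead1 had such a change: over all kept cells it was higher at high Acta1 and Myh3 (231 against 181 CPM), but at -0.09 late over early. In the Myog contrast 1 member was lower with TMM, the set median or a pseudocount of 10 CPM. This pseudocount also ended the Vgll2 call (0.43) and gave 949 higher and 2011 lower genes. Tead3 was called lower in the Myog contrast with doubled cut points (-0.61) and in non-dividing cells (-0.70). In the division contrast Vgll2 became the 1 higher member without replicate 4 (0.60), halved cut points left 0 lower, and over all kept cells 1 was higher and 2 lower. That contrast gave 882 higher and 439 lower genes with a pseudocount of 10 CPM, 740 lower with at least 200 UMIs and 2857 higher over all kept cells. In the sarcomere contrast 2 members were lower without replicate 1 or 3 (range 1 to 2), without Malat1-poor cells, without the 5% of cells with most UMIs, by the mean of cells, with halved or doubled cut points, with a pseudocount of 0.1 CPM or in non-dividing cells, and 3 over all kept cells. Halved cut points ended the higher call of Wwtr1 there (0.48), and doubled ones ended its lower call in the Myog contrast (-0.49). All genes there were 1880 higher and 1316 lower with TMM, 1633 lower with the set median, 714 higher and 1330 lower with a pseudocount of 10 CPM, 1431 lower with at least 200 UMIs, 4951 lower over all kept cells and 1768 lower within Myog of 2500 to 5000 CPM. The last alternative, the non-dividing cells of the sarcomere contrast, the matching of early cells and those of the Ankrd1 comparison were chosen after seeing the data. Depth limits Tead3, Vgll2 and Tead2 in early cells.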
